A study of Rattus norvegicus with 8 samples.

Results

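The 10 genes described here serve lipid absorption and lipoprotein handling: Fabp1, Fabp2 and Cd36 for fatty acids, Apoa1, Apoa4, Apob and Mttp for lipoproteins, Npc1l1 and Abcg5 for sterols, and Angptl4 for the control of lipoprotein lipase. They were taken from a given list and found on the array by the transcript identifier of each probe, matched to current rat symbols. All 10 had a probe, 11 probes in all, and 9 were among the 19901 genes tested. The study asked what cocoa, and the fiber in it, does to gene expression in the rat colon. Its arrays hold 16 female Wistar rats, 6 weeks old per the labels, in 4 groups of 4: a reference diet (REF), a cocoa diet (C10), a diet with cocoa fiber, low in polyphenols (CF), and a diet with inulin, a soluble fiber from chicory (I). By the study's methods the diets were matched in energy and in their share of fat, protein and carbohydrate. RNA came from a short piece of the middle of the colon, whole tissue with mucosa, muscle and attached cells.

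In the small intestine, fatty acids and sterols are taken up by absorptive cells, bound by small carrier proteins, re-esterified and packed with apolipoproteins into chylomicrons. The colon takes little part in this, and no jejunum was measured here for comparison. Lipoprotein lipase later frees fatty acids from these particles, and Angptl4, a secreted protein induced by fatty acids through PPAR receptors, inhibits that enzyme.

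Every array, 8 in all, carried RNA of 2 rats, in Cy3 and in Cy5, and by the labels a rat was on 1 array only. The study's methods name 4 samples per condition and also dye swaps for each sample, which the labels do not show. On array 6 the title gives rat 4 of CF a number outside the run of the other rats. The diets of that array, CF and I, were kept as labelled. The C10 rats were on arrays 1 to 4 and the I rats on arrays 5 to 8, so that a difference between these diets cannot be told apart from one between the sets of arrays except through REF and CF. The median spot intensity of a rat was 109.5 to 426.5, and 63.2 to 81.7% of its probes were well above background. The number of arrays limits the precision of every value. Of 11 colonocyte genes, 11 were tested. Of 9 liver markers, albumin (Alb), Fga, Apoh and Cyp2e1 were well above background in 0 of 16 rats. Fgb and Tat were so in 1, Ttr in 4, Serpina1 in 8 and Ahsg in 9. Of 12 small intestinal markers, 6 (Lct, Alpi, Rbp2, Slc5a1, Anpep and Enpep) were well above background in 16 of 16 rats, Treh in 10, Cubn in 2, and Slc10a2 and Adh6 in 0. A gene was tested if well above background in at least 4 of 16 rats, so these counts cannot settle the label of the tissue. Rat 1 of C10 stood apart in 8 smooth muscle genes, with a mean log2 signal of 11.73 beside 13.20 to 13.95 in the other rats. Rat 4 of REF and rat 4 of C10 stood apart in Hox genes that mark position along the gut. Rat 3 of REF was the lowest REF rat in 6 of the 9 members tested and the highest in the others, Angptl4, Cd36 and Abcg5. For Cd36 this holds for the brighter probe used, while the second, dimmer probe had rat 3 as the lowest of REF, at 8.30.

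By limma's adjusted p, the test meant below unless rank product is named, Angptl4 was the 1 member past the test in any comparison, higher after cocoa. Its normalized log2 signal was 7.93, 7.15, 8.57 and 7.13 in REF rats 1 to 4, 9.28, 9.36, 8.40 and 8.64 in C10 rats, 9.09, 8.31, 8.67 and 8.23 in CF rats, and 8.50, 8.22, 8.57 and 8.27 in I rats. Rats 1, 2 and 4 of REF were below every rat of the other diets, while rat 3 of REF was above rat 3 of C10, above 2 of the CF rats and level with the highest I rat, so the groups overlapped. By mean signal the order was C10 (8.92 ± 0.47, SD, n = 4), CF (8.58 ± 0.39), I (8.39 ± 0.17) and REF (7.70 ± 0.69). In the fit of all 16 rats Angptl4 rose by 1.32 on the log2 scale in C10 against REF, 2.49-fold (SE 0.28, limma's adjusted p = 0.0460 over all genes), and was higher in 15 of 16 pairs of rats. The exact two-sided permutation p of 4 rats against 4 was 0.0571, where the smallest possible is 0.0286. The fitted difference from REF was 1.06 in CF (SE 0.30, adjusted p = 0.691, 14 of 16 pairs) and 0.78 in I (SE 0.28, adjusted p = 0.828, 12 of 16 pairs), neither past the test. Between C10 and CF it was 0.26 (95% interval −0.34 to 0.86), and between C10 and I 0.54 (−0.11 to 1.20), neither past the test (adjusted p = 0.743 and 0.503, ranges 0.086 to 0.64 and 0.34 to 0.86 with a rat left out). The call in C10 stood near the threshold: it was kept when rat 3 of REF, rat 3 of C10 or rat 1 or 2 of CF was left out (adjusted p = 0.00980 without rat 3 of REF) and lost when any of the other 12 rats was (0.0516 to 0.221, the last without rat 2 of REF), and it was lost in 6 other settings, among them a fit without the array block (0.162) and log-ratios within arrays (1.45, adjusted p = 0.265), which called 0 of 19901 genes in every comparison. In pieces of whole tissue, more cells that express a gene and more RNA per cell cannot be told apart, and the same holds for fewer cells and less RNA.

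Among the sterol genes, Npc1l1, the cholesterol transporter of the brush border, had the second smallest adjusted p of the members in C10 against REF. Its log2 signal was 7.22, 8.03, 6.54 and 7.97 in REF rats 1 to 4, 6.65, 6.50, 6.45 and 6.20 in C10 rats, 6.46, 7.26, 6.33 and 6.10 in CF rats, and 6.68, 7.31, 6.51 and 7.29 in I rats. Rats 1, 2 and 4 of REF were above every C10 rat, and rat 3 of REF was among the C10 rats, so the groups overlapped. The fitted difference was −1.08 in C10 against REF (SE 0.28, adjusted p = 0.0810, higher in 1 of 16 pairs, exact permutation p = 0.0571), −0.87 in CF (SE 0.31, adjusted p = 0.738) and −0.37 in I (SE 0.28, adjusted p = 0.931). With a rat left out the difference in C10 ran from −1.32 to −0.81. It passed the test without rat 3 of REF (adjusted p = 0.0272) and in none of the other 15 fits (up to 0.367, without rat 2 of REF). Over the other settings it ran from −2.36 with processed signals to −0.99, with 1 call by limma (adjusted p = 0.0499, without normalization between arrays). With processed signals the difference in CF against REF was −1.80, so the size for this dim gene depends on the signals used. Abcg5, which with its partner Abcg8 returns sterols to the lumen, ranged from 6.20 (rat 4 of C10) to 7.45 (rat 1 of I), with diet means of 6.57 in REF, 6.60 in C10, 6.59 in CF and 6.76 in I. Its differences from REF were 0.06, 0.03 and 0.17, smaller than the spread between rats, and its partner Abcg8 was well above background in 0 of 16 rats.

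Of all members, Fabp1 varied most from rat to rat. Fabp1, the liver-type carrier, had log2 signals of 10.97, 9.22, 8.41 and 10.41 in REF rats 1 to 4, 8.80, 8.57, 9.02 and 6.66 in C10 rats, 8.65, 10.55, 8.73 and 7.82 in CF rats, and 7.75, 10.54, 8.50 and 10.94 in I rats. Every diet overlapped every other: C10 held the lowest rat and none above 9.02, while rat 3 of REF was below 3 of the 4 C10 rats. The fitted difference in C10 against REF was −1.55 (SE 0.56, adjusted p = 0.185, exact permutation p = 0.143), in CF −0.52 (SE 0.61, adjusted p = 0.937, range −1.14 to −0.072 with a rat left out) and in I 0.04 (SE 0.56, adjusted p = 0.995). With a rat left out the difference in C10 ran from −2.07 to −1.20. It passed without rat 3 of REF (adjusted p = 0.0425) and in none of the other 15 fits (up to 0.468, without rat 2 of REF). The SD of Fabp1 over the 16 rats, 1.26, was at percentile 99.7 of all genes tested, and its fitted Cy5 signal was 1.24 below its Cy3 signal (dye effect −1.24, SE 0.36, adjusted p = 0.0565), so that the share of dye and rat in this spread cannot be told apart for a single rat. Fabp2, the intestinal carrier, was 12.33, 12.07, 10.83 and 12.80 in REF rats 1 to 4, 11.38, 11.45, 11.52 and 10.36 in C10 rats, 10.97, 12.60, 10.54 and 10.78 in CF rats, and 11.38, 12.69, 11.11 and 11.95 in I rats. As for Fabp1, rat 3 of REF and rat 4 of C10 were the lowest and rat 2 of CF the highest of their diets, and the diets overlapped. Its fitted differences from REF were −0.99 in C10 (SE 0.44, adjusted p = 0.272, range −1.33 to −0.66 with a rat left out), −0.79 in CF (SE 0.48, adjusted p = 0.846, range −1.34 to −0.38) and −0.07 in I (SE 0.44, adjusted p = 0.995). Cd36, a fatty acid receptor of the cell surface that fat, muscle and vessels also carry, was the steadiest of the 9 members tested, at 10.37 to 10.80 in all rats (SD 0.12, percentile 19.1), with a difference of −0.15 in C10 against REF (SE 0.07, adjusted p = 0.306). Its second, dimmer probe gave −0.16 (SE 0.10, adjusted p = 0.448).

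Of the apolipoproteins, Apoa4, which coats chylomicrons, spread widest, from 6.47 in rat 4 of C10 to 9.84 in rat 4 of REF. Its log2 signal was 8.86, 8.11, 6.64 and 9.84 in REF rats 1 to 4, 9.56, 7.61, 7.03 and 6.47 in C10 rats, 7.51, 7.38, 6.77 and 6.78 in CF rats, and 7.51, 7.94, 6.93 and 7.97 in I rats. REF and C10 each held a rat near the top and a rat near the bottom of the range, and CF and I lay within the range of REF. The fitted differences from REF were −0.63 in C10 (SE 0.54, adjusted p = 0.608, range −1.33 to −0.20 with a rat left out), −0.93 in CF (SE 0.59, adjusted p = 0.864, range −1.32 to −0.42) and −0.52 in I (SE 0.54, adjusted p = 0.955, range −0.997 to 0.097). Apoa1, the main protein of high-density lipoprotein, had diet means of 11.39 ± 1.07 (SD, n = 4) in REF, 11.01 ± 0.87 in C10, 10.39 ± 0.55 in CF and 10.63 ± 0.70 in I. Rat 3 of REF, at 9.86, was below every C10 rat and within the range of CF and I, and none of its differences passed limma's test (−0.42, −0.84 and −0.56 in C10, CF and I against REF, adjusted p = 0.674, 0.831 and 0.931; −0.95 to −0.16, −1.21 to −0.55 and −1.02 to −0.22 with a rat left out). Apob, the scaffold of chylomicrons, was dim, at 6.36 to 7.30, and well above background in 15 of 16 rats, with differences of −0.19, −0.25 and −0.15 from REF (−0.33 to −0.10, −0.43 to −0.16 and −0.36 to −0.077 with a rat left out). Mttp, which loads lipid onto Apob, was at 5.93 to 6.26 and well above background in 0 of 16 rats, so it was not tested, and whether it differed between diets was not detectable here.

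**Figure D1:**
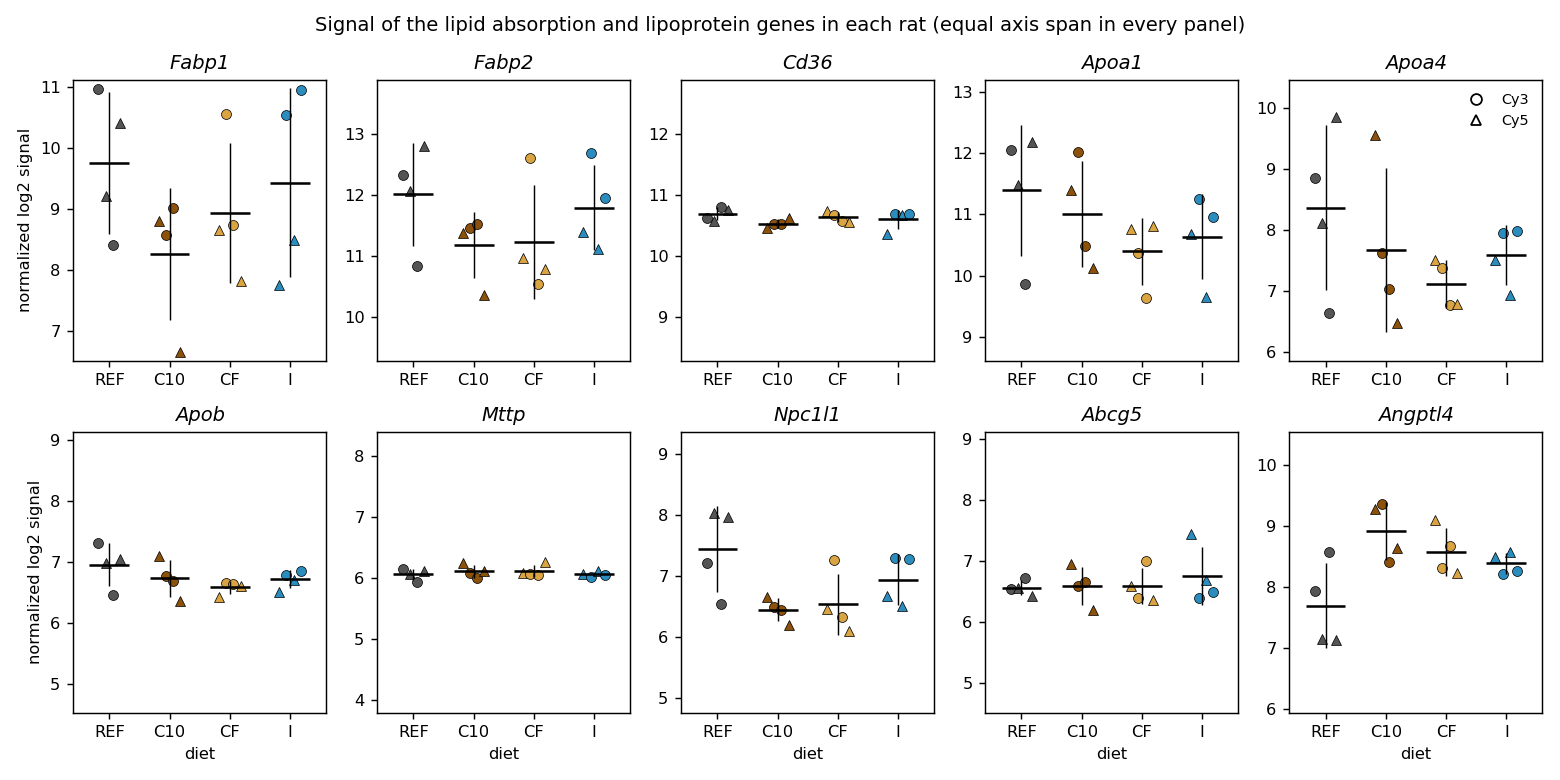
Normalized log2 signal (vertical axis) of each member in each rat, by diet, with circles for Cy3, triangles for Cy5, horizontal bars for the mean and vertical bars for 1 SD of 4 rats; each panel spans the same number of log2 units. Angptl4 has 3 REF rats at 7.13 to 7.93, below all other diets, and rat 3 of REF at 8.57; Mttp stays between 5.93 and 6.26.

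Counted over the 9 members tested, 1 rose and 0 fell past the test in C10 against REF, where 186 of 19901 genes, 0.935%, passed (67 up, 119 down; 35 without rat 2 of REF and 685 without rat 3 of REF). The members were 2 higher and 7 lower, with a median log2 difference of −0.42 (−0.77 to −0.17 with a rat left out) beside 0.01 over all genes, and 4 of 9 had an unadjusted p below 0.05 beside 17.1% of all genes. In CF against REF limma called 0 members and 0% of all genes (1261 genes at an unadjusted p below 0.05, 132 by rank product), with 2 members higher and 7 lower, a median of −0.52 (−1.14 to −0.20) and 2 at an unadjusted p below 0.05. In I against REF it called 0 members and 0% of all genes (1129 at an unadjusted p below 0.05, 72 by rank product), with 3 members higher and 6 lower, a median of −0.09 (−0.59 to 0.097, a change of sign) and 1 at an unadjusted p below 0.05. These 3 comparisons share the REF rats, so a single REF rat moves all of them. Between the other diets limma called 0 members in C10 against CF (0.412% of all genes called), 0 in C10 against I (0.553%) and 0 in CF against I (0%, with 564 genes at an unadjusted p below 0.05 and 35 by rank product), with 0, 2 and 0 members at an unadjusted p below 0.05 beside 13.45, 12.23 and 2.83% of all genes.

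Rank product, the test the study used, ranks all genes by their difference in each pair of rats and takes no account of dye or shared array. In C10 against REF it called 5 members, Angptl4 up and Fabp1, Fabp2, Apoa4 and Npc1l1 down, with 1.48% of all genes called. In CF against REF it called 6, the same genes and Apoa1 down (0.663%), and in I against REF 2, Apoa1 and Apoa4 down (0.362%). It called 0 members in C10 against CF (0.578%), 1 in C10 against I, Fabp1 down (1.13%), and 0 in CF against I (0.176%). Members whose 4 rats of a diet all lay beyond all 4 of the other numbered 0 in all 6 comparisons, where this held for 4.62% of all genes in C10 against REF, 1.92% in CF against REF, 2.04% in I against REF, 3.5% in C10 against CF, 5.92% in C10 against I and 1% in CF against I.

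**Figure D2:**
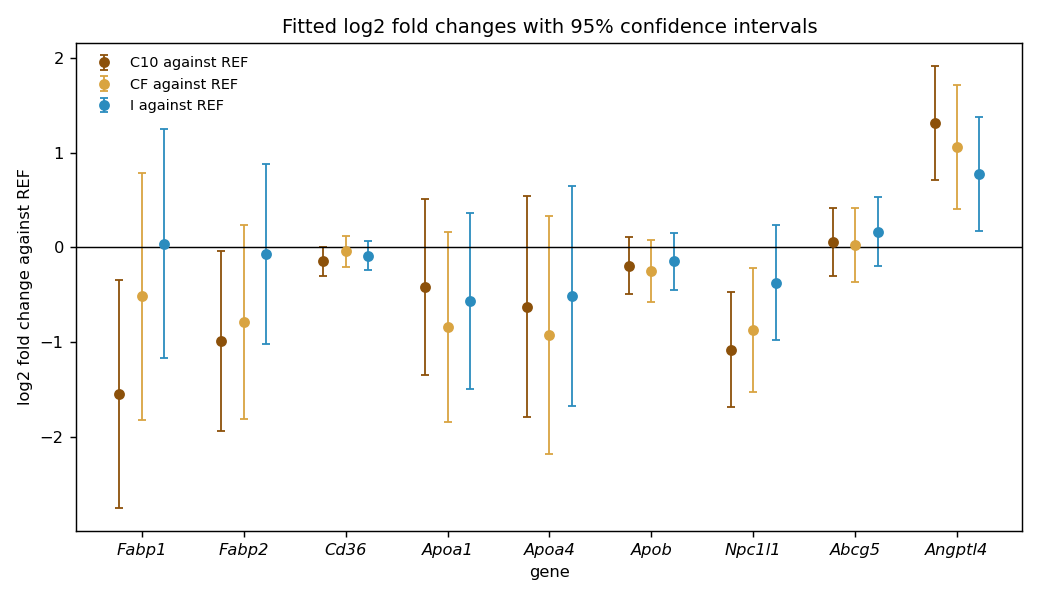
Fitted log2 fold change against REF (vertical axis) of the 9 members tested, with 95% confidence intervals, for C10, CF and I. The 3 intervals of Angptl4 lie above 0, those of Npc1l1 lie below 0 in C10 and CF and those of Fabp1 and Fabp2 in C10, and those of Cd36, Apob and Abcg5 are narrow around 0; the 3 comparisons share the REF rats.

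Some of the members varied over the rats together with posterior Hox genes. Posterior Hox genes are expressed more toward the rectum, and 5 of a list of 8 were tested: Hoxb13, Hoxd13, Hoxd12, Hoxd10 and Hoxa11. Their mean is carried by Hoxb13, which had an SD of 2.21 over the rats, beside 0.17 to 0.76 for the other 4. Hoxd12 was well above background in 6 of 16 rats, and Hoxa11 ran against the mean (r = −0.78). The mean log2 signal, adjusted for dye, was 9.13, 8.77, 9.32 and 7.54 in REF rats 1 to 4, 8.97, 9.59, 9.38 and 10.29 in C10 rats, 9.38, 8.48, 9.33 and 9.57 in CF rats, and 9.11, 8.55, 9.10 and 8.96 in I rats. Rat 4 of REF was lowest and rat 4 of C10 highest, and the diets overlapped. The mean was 8.69 ± 0.80 in REF, 9.56 ± 0.55 in C10, 9.19 ± 0.48 in CF and 8.93 ± 0.26 in I (SD, n = 4), so C10 was highest and REF lowest. The place of REF rests on its rat 4. Its other rats were at 8.77 to 9.32, beside 8.55 to 9.11 in I. Of the 5 genes, 4 were higher and 1 lower in C10 against REF: Hoxd10 differed by 0.999 (SE 0.42, adjusted p = 0.240) and Hoxa11 by −0.77 (SE 0.30, adjusted p = 0.211), and none of the 5 passed in any comparison.

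Over the 16 rats Fabp2 was lower where posterior Hox signal was higher (r = −0.85, permutation p = 2e-05; Spearman's rho = −0.85, p = 4e-05), and 9 such relations were computed, 1 for each member tested, with Benjamini-Hochberg adjustment over them (adjusted p = 9e-05 for this r). The same held for Fabp1 (r = −0.83, permutation p = 1e-05, the smallest that the resamples can give, adjusted 9e-05; rho = −0.77, adjusted 0.0021) and for Npc1l1 (r = −0.82, permutation p = 6e-05, adjusted 0.00018; rho = −0.90, adjusted 9e-05). These 3 relations were also found with values centred within each diet (r = −0.83, −0.76 and −0.76 for Fabp2, Fabp1 and Npc1l1, permutation p adjusted 0.0044, 0.0181 and 0.0058). Without rat 4 of REF and rat 4 of C10 they were −0.81, −0.72 and −0.78 in that order (permutation p adjusted 0.0043, 0.0109 and 0.0047).

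Within the 8 rats of arrays 1 to 4, r was −0.93 for Fabp2, −0.86 for Fabp1 and −0.74 for Npc1l1 (exact permutation p = 0.00099, 0.0045 and 0.037, adjusted 0.0089, 0.0202 and 0.110), and within those of arrays 5 to 8 it was −0.89, −0.85 and −0.94 (exact permutation p = 0.0011, 0.0037 and 7.4e-05, adjusted 0.0034, 0.0083 and 0.00067). By rho, Npc1l1 passed within arrays 1 to 4 too (−0.86, exact permutation p adjusted 0.0461). Apoa4 (r = −0.70, permutation p = 0.00194, adjusted 0.00437), Apob (r = −0.54, p = 0.0292, adjusted 0.0438) and Angptl4 (r = 0.61, p = 0.0133, adjusted 0.0240) also passed over 16 rats, which makes 6 of 9 members. Of the other genes tested, 10.1% had an r at least as far from 0 as that of Apob. Without the 2 rats named, these 3 were −0.41, −0.30 and 0.45 (permutation p adjusted 0.262, 0.432 and 0.229), none past it. Within arrays 1 to 4 they were −0.56, −0.51 and 0.41 (exact permutation p adjusted 0.329, 0.353 and 0.406), none past it, and within arrays 5 to 8 −0.95, −0.85 and 0.90 (exact permutation p adjusted 0.00342, 0.0184 and 0.0255), all past it, as was Apoa1 at −0.79 (adjusted 0.0234), while rho there passed for Apoa4 (adjusted 0.0490) and not for Apob, Angptl4 and Apoa1 (0.0662, 0.170 and 0.170). Centred within diet, Angptl4 was at 0.39 and Apob at −0.52, neither past the adjusted p, and Apoa4 at −0.76 (permutation p adjusted 0.0181; rho −0.63, adjusted 0.066). Apoa1 (r = −0.43), Cd36 (−0.29) and Abcg5 (0.01) did not pass over 16 rats. With Hoxb13 left out of the mean, chosen after seeing the data, r was −0.63 for Fabp1, −0.52 for Fabp2 and −0.55 for Npc1l1 (permutation p adjusted 0.0277, 0.0582 and 0.0582), −0.64 for Apoa4, −0.60 for Apob and 0.28 for Angptl4 (adjusted 0.0277, 0.0371 and 0.334), so that 3 of 9 passed by r. By rho 1 of 9 passed, Npc1l1 (−0.70, adjusted 0.0292), and not Fabp1, Apoa4 or Apob (adjusted 0.0757, 0.0604 and 0.0698). Position along the colon was not measured, and its part in the differences between diets was not tested.

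**Figure D3:**
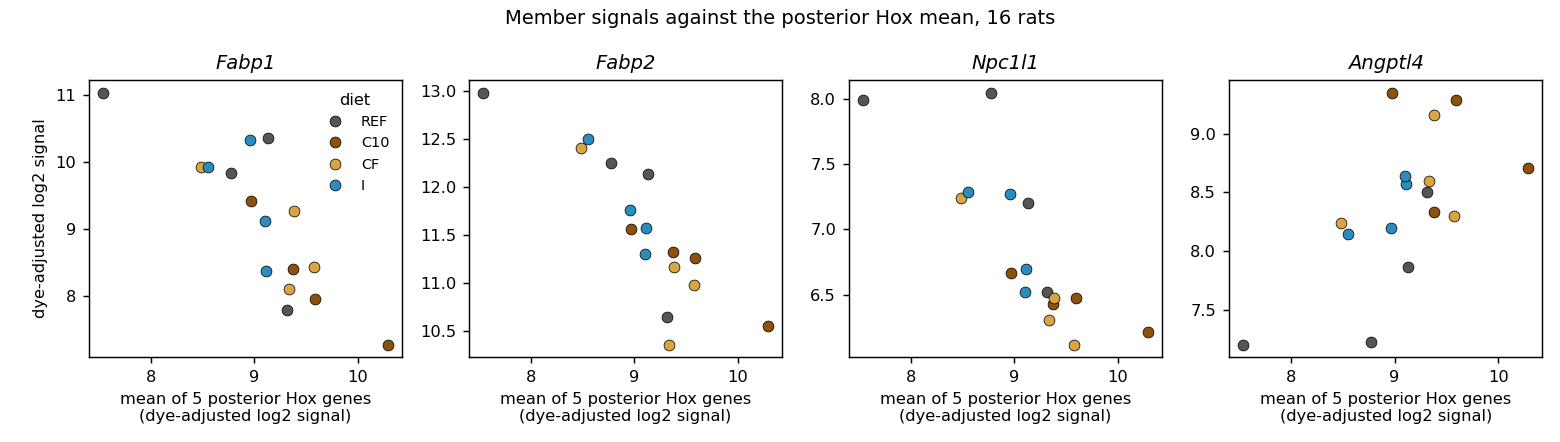
Dye-adjusted log2 signal of Fabp1, Fabp2, Npc1l1 and Angptl4 (vertical axis) against the mean of 5 posterior Hox genes (horizontal axis), 1 point for each of 16 rats, coloured by diet. Fabp1, Fabp2 and Npc1l1 fall from the left to the right in all diets together (r of −0.83, −0.85 and −0.82), and the REF rat at 7.54 and the C10 rat at 10.29 are the ends of the range.

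The members also went with each other across rats, a relation examined after their values were seen. Of 36 pairs, 19 passed an adjusted p below 0.05 over the pairs for r, 17 of them for rho too, and 10 with values centred within diet; of all pairs of the genes tested, 9.08% had an r at least as far from 0 as the weakest of the 19 (0.57). The pair Fabp2 and Npc1l1 reached r = 0.88 (permutation p = 1e-05, adjusted 0.00036, rho = 0.90). It was 0.85 without the 2 rats farthest from the median of Fabp2, 0.87 within arrays 1 to 4 and 0.91 within arrays 5 to 8. Fabp1 and Fabp2 also had r = 0.88 (permutation p adjusted 0.00045, rho = 0.84). That r was 0.81 without the 2 rats farthest from the median of Fabp1, and 0.88 and 0.89 within the 2 sets of arrays. Among the apolipoproteins Apoa4 and Apob had r = 0.87 (permutation p adjusted 0.00045, rho = 0.84), and Apoa1 and Apoa4 0.81 (adjusted 0.0019, rho = 0.81). Without the 2 rats farthest from the median of Apoa4 and of Apoa1, in that order, these were 0.83 and 0.69. Within arrays 1 to 4 they were 0.91 and 0.73, and within arrays 5 to 8 0.86 and 0.87. Angptl4 went against Npc1l1 (r = −0.79, permutation p adjusted 0.0019; rho = −0.65), a relation that was −0.60 with values centred within diet (adjusted 0.117) and −0.50 without the 2 rats farthest from the median of Npc1l1. Within arrays 1 to 4 it was −0.81, and within arrays 5 to 8 −0.85. Cd36 and Abcg5 stood outside these pairs, apart from their own relation (r = −0.57, permutation p adjusted 0.0396; rho = −0.45, adjusted 0.155).

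The rest of the pathway was read from lists written with earlier results of these data known, each given beside a median of 0.01 over all genes in C10 against REF. Genes of fatty acid uptake and activation were 5 higher and 5 lower of 10 tested (median −0.01), with Dbi, which binds acyl-CoA, at −0.21 (SE 0.10, adjusted p = 0.327) and Acsl4, which activates fatty acids, at 0.14 (SE 0.08, adjusted p = 0.399). Triglyceride resynthesis and lipid droplet genes were 6 higher and 9 lower of 15 (median −0.02), with Dgat2, which makes triglyceride, at −0.68 (SE 0.26, adjusted p = 0.198) and Fitm2, which helps droplets form, at 0.30 (SE 0.12, adjusted p = 0.207). Chylomicron and lipoprotein assembly genes were 8 higher and 7 lower of 15 (median 0.02), with Lcat, which esterifies plasma cholesterol, at −0.41 (SE 0.16, adjusted p = 0.198) and Pltp, which transfers phospholipid, at −0.52 (SE 0.21, adjusted p = 0.236; −0.89 and 0.0240 without rat 2 of C10). Of the 10, 15 and 15 genes of these lists, 0, 4 and 2 had an unadjusted p below 0.05 in C10 against REF, beside 17.1% of all genes. None of the lists held a gene past limma's adjusted p in any of the 6 comparisons.

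Sterol uptake, esterification and export genes were 11 higher and 3 lower of 14 (median 0.17), with Gramd1b, a carrier of membrane cholesterol, at −0.23 (SE 0.08, adjusted p = 0.180). The lipoprotein lipase system, the target of Angptl4, was 3 higher and 3 lower of 6 (median −0.02), but its enzyme and the anchor of that enzyme had the smallest p of the list. Lpl was 7.43, 7.18, 7.73 and 7.58 in REF rats 1 to 4 and 6.99, 6.77, 7.05 and 6.84 in C10 rats. Every C10 rat was below every REF rat, and the fitted difference was −0.60 (SE 0.16, adjusted p = 0.0797, exact permutation p = 0.0286). Gpihbp1, which holds the enzyme on capillary walls, was at −0.36 (SE 0.10, adjusted p = 0.0894). Fatty acid oxidation genes and PPAR targets, to which Angptl4 belongs by its regulation, were 10 higher and 7 lower of 17 (median 0.02), with Pdk4, a brake on glucose oxidation, at 0.26 (SE 0.08, adjusted p = 0.127) and Ucp3 at −0.25 (SE 0.09, adjusted p = 0.166). Regulators of absorption genes were 10 higher and 4 lower of 14 (median 0.12), with the nuclear receptors Nr5a2 at 0.44 (SE 0.11, adjusted p = 0.0700) and Hnf4a at 0.21 (SE 0.08, adjusted p = 0.206). These lists too held 0 genes past limma's adjusted p in all 6 comparisons. Of their 14, 6, 17 and 14 genes, 3, 2, 2 and 4 had an unadjusted p below 0.05 in C10 against REF, beside 17.1% of all genes.

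Cells that could carry these genes were read from marker lists, and their part in the results was not tested. Small intestinal enterocyte markers were 6 higher and 1 lower of 7 tested (of 12 listed) in C10 against REF, with means of 7.60 in REF, 7.63 in C10, 7.68 in CF and 7.64 in I; Slc10a2 and Adh6 were well above background in 0 of 16 rats, the glucose carrier Slc5a1 was at 0.26 (SE 0.08, adjusted p = 0.131) and Alpi at 0.14 (SE 0.07, adjusted p = 0.299). Colonocyte markers were 7 higher and 4 lower of 11 (1 to 7 lower, with medians of −0.046 to 0.21, when a rat was left out; means 11.63, 11.88, 11.72 and 11.74 in REF, C10, CF and I), lowest in rat 3 of REF at 11.02, with Scnn1b at 0.71 (SE 0.31, adjusted p = 0.266) and Aqp8 at 0.88 (SE 0.41, adjusted p = 0.290). Of the hepatocyte markers 3 of 9 were tested: Ahsg, Serpina1 and Ttr, well above background in 9, 8 and 4 of 16 rats. Alb, Fga, Apoh and Cyp2e1 were well above background in 0 of 16 rats. In C10 against REF, Ttr and Ahsg were at −0.08 and 0.05 (adjusted p = 0.581 and 0.727).

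Adipocyte markers were 2 higher and 7 lower of 9 tested (of 12 listed) in C10 against REF, with a median of −0.60 (−0.71 to −0.54 with a rat left out) and means of 8.97 in REF, 8.42 in C10, 8.98 in CF and 8.82 in I; leptin was well above background in 2 of 16 rats. Fabp4, the fat-cell relative of Fabp1, was 10.03, 9.14, 10.56 and 9.38 in REF rats 1 to 4 and 8.53, 8.51, 8.98 and 9.11 in C10 rats. Every C10 rat was below every REF rat, with a fitted difference of −1.06 (SE 0.27, adjusted p = 0.0783; −1.24 and 0.0446 without rat 4 of C10), and Lpl is on this list too. Smooth muscle markers were lower in 8 of 8 genes in C10 against REF (median −0.77; 6 of 8 and −0.18 without rat 1 of C10), with Actg2 at −1.17 (SE 0.42, adjusted p = 0.177) and Des at −0.94 (SE 0.34, adjusted p = 0.186). Endothelial markers were 6 higher and 2 lower of 8 (median 0.004, −0.034 to 0.052 with a rat left out), with Kdr at 0.27 (SE 0.11, adjusted p = 0.221) and Gpihbp1 as above.

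Macrophage markers, 1 higher and 6 lower of 7 in C10 against REF (median −0.25, −0.49 to −0.059 with a rat left out; means 9.01, 8.66, 9.22 and 9.17 in REF, C10, CF and I), held the 1 gene of all lists past the test besides Angptl4. Siglec1, a receptor of tissue macrophages, was 7.46, 7.60, 7.53 and 7.80 in REF rats 1 to 4 and 6.65, 6.89, 6.82 and 6.73 in C10 rats. No C10 rat reached the lowest REF rat. It fell by 0.83 on the log2 scale in C10 against REF (SE 0.10, adjusted p = 0.0028), by 0.91 against CF (adjusted p = 0.0020) and by 0.89 against I (adjusted p = 0.0037). With log-ratios within arrays, a setting that called 0 of 19901 genes in every comparison, the differences were −0.84, −0.88 and −0.88 (adjusted p = 0.170, 0.297 and 0.285). Anterior Hox genes were 1 higher and 2 lower of 3 tested, with Hoxa7 at −0.61 (SE 0.25, adjusted p = 0.223) and Hoxb7 at −0.003 (SE 0.09).

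The genes most like each member over the 16 rats, the 3 with the highest r among 11921 genes with a symbol, are a description without a test. Npc1l1 was followed by Tac4, a tachykinin precursor (r = 0.98), Bpifb2, a secreted protein of mucosal surfaces (0.97), and Pga5, a pepsinogen of the stomach (0.97). Fabp2 was followed by Fam3b, a secreted cytokine-like protein (0.95), Slc18a1, an amine carrier of endocrine cells (0.95), and the neuropeptide Npw (0.94), and Fabp1 by Hsd3b5, Klk8 and Rpp25 (0.93 each). Abcg5 went with Bin2 (0.96), Tmem163 (0.96) and Skap1 (0.95), of which Bin2 and Skap1 belong to leukocytes. Apoa4 and Apob were among each other's 3 (0.87), beside Fign and Cisd3 (0.88 and 0.87) for Apoa4 and Mixl1 and Prelid3b (0.87 and 0.86) for Apob. Apoa1 went with Rab7a, Fbxo25 and Nceh1 (0.87 to 0.90), Angptl4 with Ep400, Ambra1 and Phlpp1 (0.85 to 0.88), and Cd36 with Sars2, Ciao3 and Cytl1 (0.78 to 0.82).

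Promoters are shown for Fabp1, Fabp2 and Npc1l1, which moved together over the 16 rats, and for Angptl4, which went the other way. The r of Angptl4 with these genes was −0.59, −0.64 and −0.79, in that order. With values centred within diet it was −0.39, −0.53 and −0.60 (permutation p adjusted 0.388, 0.186 and 0.117), none past the adjusted p. By r, Apoa1, Apoa4 and Apob also went with Fabp1, Fabp2 and Npc1l1. RefSeq (build GRCr8) gave a promoter of 300 bases for 7 of the 10 members, and Apoa1, Apob and Mttp were not matched. The strings searched on both strands were AGGTCA (the half-site of nuclear receptors, in 16.2% of 33469 promoters of this length), TATAAA (the box near many starts, in 14.2%), CAAAG (a core bound by HNF4 and TCF factors, in 53.8%) and GATAA (the core of GATA factors, in 26.5%). Capitals mark every match. The Fabp1 promoter holds all 4 motifs, with AGGTCA on the minus strand. The Fabp2 promoter holds the CAAAG string 2 times and the GATAA string 2 times, and that of Npc1l1 holds none of the 4. The Angptl4 promoter holds TATAAA on both strands in overlapping letters and none of the others. The promoter of Apoa4, not shown, holds none of the 4. A match is a string of letters and not a site shown to be bound.
Fabp1, chr4:104749090-104749389, plus strand: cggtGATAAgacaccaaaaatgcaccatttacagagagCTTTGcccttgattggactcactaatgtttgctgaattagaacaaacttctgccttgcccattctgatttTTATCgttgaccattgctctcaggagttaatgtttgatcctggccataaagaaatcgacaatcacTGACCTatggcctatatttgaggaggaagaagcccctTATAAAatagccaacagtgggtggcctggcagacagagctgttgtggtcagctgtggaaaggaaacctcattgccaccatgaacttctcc
Fabp2, chr2:213724379-213724678, plus strand: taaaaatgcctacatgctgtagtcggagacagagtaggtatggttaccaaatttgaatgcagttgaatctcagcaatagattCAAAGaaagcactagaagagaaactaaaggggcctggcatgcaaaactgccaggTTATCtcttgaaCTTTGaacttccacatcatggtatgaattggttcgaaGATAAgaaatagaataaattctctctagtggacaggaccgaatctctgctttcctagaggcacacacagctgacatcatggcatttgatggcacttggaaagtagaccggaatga
Npc1l1, chr14:85305001-85305300, minus strand: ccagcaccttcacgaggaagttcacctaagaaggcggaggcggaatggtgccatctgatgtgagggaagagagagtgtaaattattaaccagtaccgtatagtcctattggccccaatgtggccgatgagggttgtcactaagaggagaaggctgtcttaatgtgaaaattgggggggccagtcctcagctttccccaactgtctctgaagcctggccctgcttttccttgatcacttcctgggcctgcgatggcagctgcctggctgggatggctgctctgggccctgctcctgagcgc
Angptl4, chr7:15258632-15258931, minus strand: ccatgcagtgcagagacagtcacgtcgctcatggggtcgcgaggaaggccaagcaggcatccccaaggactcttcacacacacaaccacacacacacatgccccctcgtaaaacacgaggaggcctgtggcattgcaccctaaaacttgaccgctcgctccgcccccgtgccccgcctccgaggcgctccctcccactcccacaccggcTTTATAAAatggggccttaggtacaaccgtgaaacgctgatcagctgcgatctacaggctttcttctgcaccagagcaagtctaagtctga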

How the data were processed

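Colon RNA of 16 rats was measured on 8 arrays with 2 dyes; diets, dyes and arrays were taken from the labels, and replicate numbers do not pair rats. The authors used Agilent Feature Extraction 10.7.3.1, and from the deposited files the raw median intensity and local background of every spot were read in both dyes; its processed intensity entered 1 alternative. The normalized values were left out, since no label ties their columns to the arrays. Signals were background-corrected (normexp, offset 50), smoothed over the array (loess span 0.4) and over intensity (span 0.3), and scaled between arrays (Aquantile) with limma 3.58.1; the study names these steps and the numbers were chosen here. Other tools were R 4.3.3, statmod 1.5.0 and the package data.table, version 1.17.8. Log2 signals were averaged over the spots of a probe. Such signals of a single dye are open to dye bias; each diet had 2 rats in each dye. Of 30367 probes, 22539 were well above background, by the scanner software's mark, in at least 4 of 16 rats; the rest were left out, and the brightest probe stood for a gene. Transcript identifiers were matched through RefSeq to symbols for 18005 probes, and 7979 genes tested have none.

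The limma fit used all rats, with terms for diet and dye and array as block (consensus correlation 0.42); p values, moderated by empirical Bayes, were adjusted by Benjamini-Hochberg over 19901 genes, and a gene passed below 0.05. The steps were tested on simulated data. For single genes, two-sided exact permutation tests of 4 rats against 4 were run, and for correlations over 16 rats 100000 permutations (Python 3.11.15, numpy 2.4.6, pandas 2.3.3). These permutations took no account of rats that share an array, so their p values leave out the correlation within arrays (0.42). Alternatives changed the background, normalization, filter, probe, dye term, block, array set, test or fold limit, or left out each rat; the correlations within arrays 1 to 4 and 5 to 8, those without Hoxb13 and those between members were chosen after seeing the data. Genes named are the members, list genes past the test or else up to 2 of a list among those with the smallest p in C10 against REF, and the 3 most like each member. The members and lists were chosen with earlier results of these data known.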

Additional observations from a re-analysis of the deposited data

Results flagged for a closer look

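In 44 groups of 4 rats, 1 for each of 11 probes and 4 diets, a rat stood far from the other 3 in 3, by a test of its gap to the nearest rat that chance passes in about 1 of 20 groups. Fabp2 was at 10.36 in rat 4 of C10 and at 11.38 to 11.52 in the other C10 rats. Cd36 was at 10.37 in rat 1 of I and at 10.67 to 10.69 in the other I rats. Mttp was at 6.26 in rat 4 of CF and at 6.05 to 6.08 in the other CF rats, all below the level called well above background.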

How the results depend on the processing

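With 4 rats per diet, each on 1 array, the call of Angptl4 depends on the model, and the cause was not tested. Members past the test in C10 against REF numbered 1, and 0 with processed signals, no dye term, log-ratios within arrays, no array block, no filter on dim probes or the set of arrays as a term (adjusted p of Angptl4 0.0518, 0.0752, 0.265, 0.162, 0.0585 and 0.0733), 2 without normalization between arrays, 5 by rank product, and 0 to 3 when a rat was left out. By rank product they were 6 in CF against REF, 2 in I against REF and 1 in C10 against I (0.663, 0.362 and 1.13% of all genes). Over all genes in C10 against REF, 186 of 19901 passed in the main fit. In the 6 settings named, in that order, 161, 69, 0, 42, 130 (of 26907) and 134 passed. Without normalization between arrays 250 passed and by rank product 294. With a rat left out 35 to 685 passed, the most without rat 3 of REF, where 3 members passed. Members related by r to posterior Hox genes numbered 6, 4 with values centred within diet, 3 without the 2 farthest rats, 3 with Hoxb13 left out of the mean, 2 within arrays 1 to 4 and 7 within arrays 5 to 8. Of the other genes tested, 10.1% had an r at least as far from 0 as the weakest of the 6. No such share was computed for the other settings, so their counts have none to stand beside. Replicate numbers do not pair rats; rats sharing an array are compared by the log-ratios, which called 0 of 19901 genes in every comparison. Of 858 refitted differences of members, 821 kept their sign and call, and of 864 with a rat left out, 805 did. In the main fit only Angptl4 in C10 against REF was past the test. Most of the kept calls are therefore differences that did not pass in either fit, and these counts say little about calls. The call of Angptl4 was lost in 12 of 16 fits with a rat left out.

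Signs reversed as follows, in differences none of which passed the test. Fabp1 in I against REF was −0.024 with processed signals, −0.077 with no dye term and −0.32 with no array block or by rank product. Fabp2 there was 0.0086 without normalization between arrays, 0.15 with log-ratios and 0.15 with the set of arrays as a term. In C10 against CF, Apoa4 was −0.058 with log-ratios, and Apob −0.0054 without normalization between arrays and −0.063 with log-ratios. In C10 against I, Apoa1 was −0.17 with log-ratios and with the set of arrays as a term; with no array block and by rank product Apoa4 was 0.081 and Apob 0.017. Cd36 in CF against I was −0.0099 by its other probe. In C10 against REF, Ahsg was −0.025 with processed signals, and Hoxb7 was 0.012 with processed signals, 0.0095 with quantile normalization, 0.0066 with no dye term and 0.026 with no array block or by rank product. Within arrays 1 to 4, r with posterior Hox genes was 0.051 for Cd36 and −0.43 for Abcg5, and without Hoxb13 0.019 and −0.48.

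Ranges over rats left out, where a sign reversed, were as follows. C10 against REF: Abcg5 −0.087 to 0.17, Hoxb7 −0.074 to 0.057. CF against REF: Abcg5 −0.045 to 0.11. I against REF: Fabp1 −0.71 to 0.58, Fabp2 −0.59 to 0.43, Apoa4 −0.997 to 0.097. C10 against CF: Fabp2 −0.42 to 0.46, Apoa4 −0.17 to 0.93, Apob −0.028 to 0.20, Npc1l1 −0.38 to 0.14, Abcg5 −0.057 to 0.22. C10 against I: Apoa1 −0.29 to 0.40, Apoa4 −0.71 to 0.40, Apob −0.16 to 0.062, Abcg5 −0.22 to 0.084. CF against I: Cd36 −0.036 to 0.093, Apoa1 −0.43 to 0.082, Abcg5 −0.24 to 0.094.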
